A study of Mus musculus with 4 samples.

Results

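The genes described here are the proteases that cut the extracellular matrix, the inhibitors of those proteases, and the enzymes that fold, trim and crosslink collagen. They were taken by symbol: the matrix metalloproteinases (Mmp), the ADAMTS and ADAMTS-like genes, Timp1 to Timp4, Lox and the Loxl genes, P4ha1 to P4ha3, Plod1 to Plod3, and Pcolce, Pcolce2, Serpinh1 and Bmp1. Of 17097 measured genes, 54 matched, each read by its brightest probe set over the 4 arrays. The cells were mouse brown adipocytes differentiated for 6 days, in 2 groups that differed in the short hairpin RNA (shRNA) they expressed: Scramble, a control with no intended target (2 arrays), and shBlnc1, directed at Blnc1, a long noncoding RNA of brown fat (2 arrays, called knockdown below). The samples are described as biological replicates. How the hairpins were delivered, how many were used, and the strain, sex and age of the source animals are not given in the sources used here. The level of Blnc1 itself was not analysed here, so its depletion on these arrays was not checked.

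Fibrillar collagen is made as a procollagen in the endoplasmic reticulum, where prolyl and lysyl hydroxylases modify it and a chaperone holds its triple helix. Outside the cell its end pieces are clipped off, the molecules line up into fibrils, and lysyl oxidases start the crosslinks that harden them. Metalloproteinases of the MMP and ADAMTS families cut collagen, gelatin and large proteoglycans, and TIMP proteins block their active sites. In fat this machinery builds and remodels the basement membrane and fibrils around the cells, and fibroblasts and preadipocytes are large producers of it.

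The fat cell markers Adipoq and Fabp4 read at or above 11.75 on every array (log2 value), and neither was called. Of 7 measured brown and general adipocyte markers 0 were higher and 3 lower in knockdown: Ucp1 (3.64-fold), Cidea (4.02-fold) and Cebpa (1.38-fold), all above background in both groups (adjusted p = 0.00103, 0.000291 and 0.0368). Several readings other than those of the matrix genes differed between the groups. Of 9 measured hepatocyte markers, 8 were lower in knockdown, and the sum of their linear values was 278 and 294 on the scramble arrays against 68.9 and 93.1. Of 7 preadipocyte and fibroblast markers, 5 were higher in knockdown (Pdgfra, Pdgfrb, Dlk1, Thy1 and Cd34) and 0 were lower, with summed values of 93.9 and 110 against 158 and 158. The summed macrophage markers ranged from 77.3 to 77.9 in scramble and from 74.7 to 79.8 in knockdown, with Ptprc, Itgam, Lyz2 and Mrc1 at background in both groups, while of 10 markers Adgre1 was higher (1.62-fold, adjusted p = 0.0133) and Tyrobp lower (1.59-fold, adjusted p = 0.0196). The summed endothelial markers ranged from 57 to 59.4 and from 55 to 59.2, with Cdh5, Tie1 and Emcn at background, while 1 of 8, Tek, was higher (1.59-fold, adjusted p = 0.0106). Those of smooth muscle and pericytes were 453 and 472 against 620 and 644, where 1 of 6 genes, Acta2, was higher and the other 5 were not called. Acta2, the brightest of them by far (8.63 and 8.69 against 9.16 and 9.22), makes up most of that sum. The mean log2 value of the 6 did not rise, at 4.11 and 4.15 in scramble and 4.08 and 4.06 in knockdown. For Actb, the 3' control probe set minus the 5' one, a measure of RNA breakage on the log2 scale, came to 0.99 and 1.15 in scramble and 1.77 and 1.88 in knockdown. The part that these differences play in the results was not tested. In bulk RNA a change in the share of cells of one type and a change of RNA per cell cannot be told apart.

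All 3 measured TIMP inhibitors and both procollagen enhancers were higher in the knockdown arrays, together with 3 of 5 lysyl oxidases, 1 of 3 lysyl hydroxylases (Plod2) and a subset of the proteases. Among the 54 genes there were 18 higher, 0 lower and 36 uncalled ones (limma, Benjamini-Hochberg adjusted p under 0.05 over all 17097 genes). Among all genes 11.4% were higher and 7.18% were lower, and 33.3% of the 54 were higher. At an unadjusted p under 0.05 (limma), 21 members were higher and 2 were lower (Adamts16 and Loxl1). The shares of all genes at that threshold are not given here, so whether these counts are many or few is left undecided. By size, 7 members (13% of 54) rose by at least 1 log2 unit, against 2.15% of all genes. The median log2 fold change was 0.11 over the 54 and -0.037 over all genes. The split of all calls depended on scaling, with 1941 higher and 1228 lower as deposited, 1514 and 1564 after quantile normalization and 2383 and 844 once array medians were set equal. Over those scalings the members gave 18 higher and 0 lower, 19 and 1, and 19 and 0. Both group means lay at or below 2.55, the background log2 value, for 16 members: Mmp1a, Mmp1b, Mmp3, Mmp10, Mmp12, Mmp13, Mmp16, Mmp17, Mmp20, Adamts3, Adamts4, Adamts7, Adamts8, Adamts18, Adamts20 and P4ha3. None of these 16 was called, and their single values ran from 1.39 to 2.69. The other 38 were above background in at least 1 group. Both knockdown arrays lay above both scramble arrays for 23 of the 54 (28.3% of all genes) and below them for 9 (34.3%). Leaving out 1 array at a time gave between 14 and 18 higher members, the fewest without knockdown replicate 2.

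**Figure D1:**
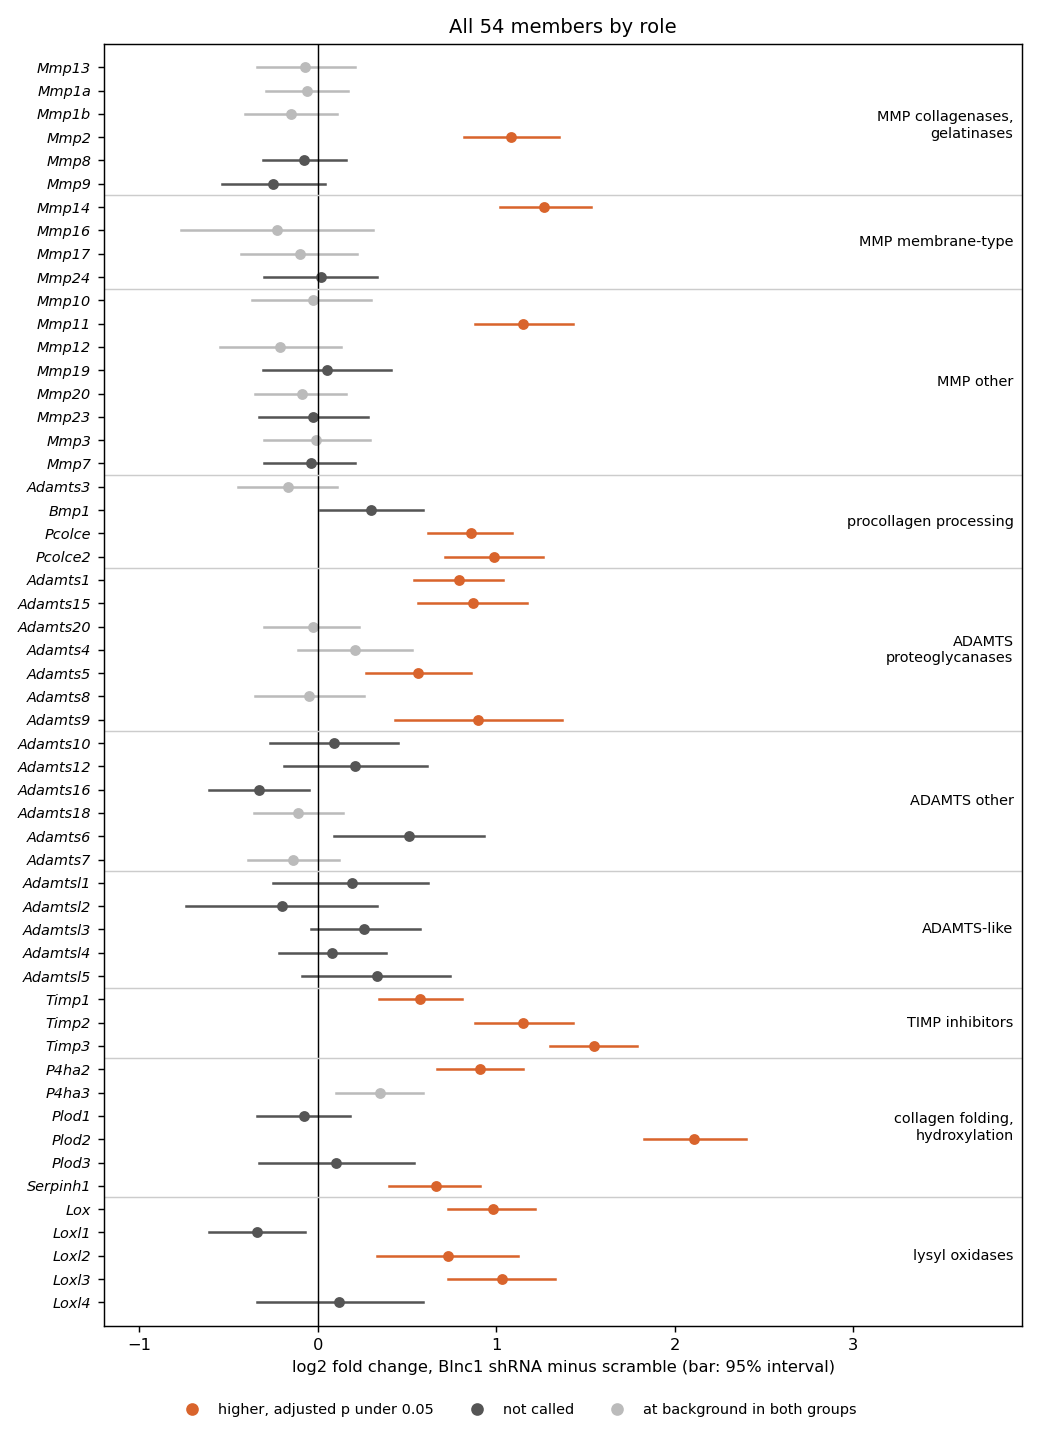
Log2 fold change (Blnc1 shRNA minus scramble, horizontal axis) of all 54 genes, grouped by role, with 95% intervals from limma; orange marks the 18 genes with an adjusted p under 0.05, dark grey those not called and light grey the 16 at background in both groups. All 3 TIMP genes, 4 of 7 ADAMTS proteoglycanases and 3 of 5 lysyl oxidases are orange, and Plod2, at 2.11, lies farthest right.

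Among the 18 metalloproteinases of the MMP family, Mmp2, Mmp11 and Mmp14 were higher and the other 15 were not called. Higher genes made up 16.7% of 6 collagenases and gelatinases, 25% of 4 membrane-type enzymes and 12.5% of 8 others, against 11.4% of all genes. The median log2 fold changes of these classes were -0.071, -0.043 and -0.029, so the family as a whole did not rise. Mmp14 (Entrez Gene 17387) encodes a membrane-anchored collagenase that also activates the MMP2 proenzyme. Its log2 values were 5.20 and 5.20 in scramble and 6.38 and 6.56 in knockdown, a 2.42-fold rise (log2 fold change 1.27, SE 0.11, adjusted p = 0.000927). Both knockdown arrays were thus above both scramble arrays by more than the distance between replicates. Mmp2 (Entrez Gene 17390), a gelatinase of stromal cells, read 4.81 and 4.78 in scramble and 5.98 and 5.77 in knockdown, a 2.12-fold rise (log2 fold change 1.08, SE 0.11, adjusted p = 0.00169). The groups did not overlap, and the knockdown arrays lay farther apart than the scramble arrays. Mmp11 (Entrez Gene 17385), which encodes stromelysin 3, a protease that leaves the cell in active form, read 3.85 and 4.10 in scramble and 5.13 and 5.12 in knockdown (2.23-fold, log2 fold change 1.15, SE 0.12, adjusted p = 0.00159). Its scramble arrays were the more variable, and both were below the knockdown arrays. These 3 genes stayed called in each of the 12 alternative fits, but a dimmer probe set of Mmp14 gave -0.08 and the mean of both gave 0.60 (adjusted p = 0.0171).

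Of the 15 MMP genes not called, 6 were above background in at least 1 group. The gelatinase gene Mmp9 read 3.25 and 2.98 in scramble and 2.82 and 2.90 in knockdown, with a log2 fold change of -0.25 (95% interval -0.54 to 0.04, adjusted p = 0.197). Its scramble and knockdown arrays were nearly touching, at 2.98 and 2.90. The neutrophil collagenase gene Mmp8 had a log2 fold change of -0.08 (-0.31 to 0.16), Mmp7, the matrilysin gene, -0.04 (-0.30 to 0.21), Mmp19 0.05 (-0.31 to 0.41) and Mmp24, which encodes another membrane-type enzyme, 0.02 (-0.30 to 0.33). By the probe sets used, the intervals of these genes leave out a log2 fold change of the size seen for Mmp2. The genes read not far above background, a log2 value of 2.55, where folds are inexact, so a rise of their RNA is not excluded. The intervals also do not cover a dimmer probe set of Mmp19, which gave 0.52 (SE 0.29). That set read 2.37 and 2.22 in scramble and 2.31 and 3.31 in knockdown. The 2 probe sets of Mmp23, a gene for a short membrane-bound member of the family, disagreed. The brighter one read 5.30 and 5.08 in scramble and 5.27 and 5.06 in knockdown (log2 fold change -0.03, adjusted p = 0.913), and the other read 4.44 and 4.57 against 5.10 and 5.33 (0.71, limma adjusted p = 0.0112 over all probe sets). With the mean of both, Mmp23 had a log2 fold change of 0.34 (adjusted p = 0.0322), so its direction and call rest on the probe set taken.

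Of the MMP genes, 9 lie side by side on chromosome 9 in the RefSeq annotation, within a run of 10 protein-coding genes: Mmp13, Mmp12, Mmp1b, Mmp3, Mmp1a, Mmp10, Mmp8, Mmp20 and Mmp7. Their values ran from 1.39 to 3.19 over the 4 arrays, 7 of them were at background in both groups, and 0 were called. The log2 fold changes of these neighbours ran from -0.21 to -0.01. Promoter windows from RefSeq (assembly GRCm38.p6, from 250 bases before to 50 bases after the gene start) were matched for 34 of the 54 genes. They are shown here for 2 of these neighbours, Mmp13 (chr9:7272264-7272563 (plus strand)) and Mmp3 (chr9:7445572-7445871 (plus strand)), and for Mmp14 (chr14:54431348-54431647 (plus strand)), which rose, because their motifs differ. Capitals mark matches, on either strand, to the AP-1 motif TGANTCA, the TATA box TATAAA, the GC box GGGCGG, the TEAD motif GGAATG and the hypoxia response core ACGTG.
Mmp13: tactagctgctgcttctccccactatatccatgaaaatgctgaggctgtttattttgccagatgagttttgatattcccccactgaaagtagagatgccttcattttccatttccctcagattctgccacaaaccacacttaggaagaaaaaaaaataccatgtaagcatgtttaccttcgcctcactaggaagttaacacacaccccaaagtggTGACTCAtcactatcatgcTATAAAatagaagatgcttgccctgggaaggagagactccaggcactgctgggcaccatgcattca
Mmp3: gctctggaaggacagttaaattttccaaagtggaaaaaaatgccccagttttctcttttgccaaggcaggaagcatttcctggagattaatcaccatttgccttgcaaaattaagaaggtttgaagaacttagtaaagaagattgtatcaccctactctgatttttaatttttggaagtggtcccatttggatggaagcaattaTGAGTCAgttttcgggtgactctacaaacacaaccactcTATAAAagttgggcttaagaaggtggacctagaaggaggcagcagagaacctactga
Mmp14: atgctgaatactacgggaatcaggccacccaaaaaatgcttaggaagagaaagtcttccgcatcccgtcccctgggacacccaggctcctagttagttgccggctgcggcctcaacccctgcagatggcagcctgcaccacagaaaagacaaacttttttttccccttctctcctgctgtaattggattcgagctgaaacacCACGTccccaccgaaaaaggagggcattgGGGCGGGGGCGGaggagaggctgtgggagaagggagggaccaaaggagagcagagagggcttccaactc
The windows of Mmp13 and Mmp3 each hold an AP-1 match, starting 35 and 46 bases before the gene start, and a TATA box 16 and 7 bases before it, and neither holds a GC box. The window of Mmp14 holds 2 adjoining GC boxes, which start 19 and 13 bases before the gene start, and a hypoxia response core, with no AP-1 match and no TATA box.

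Among the 7 ADAMTS genes whose products cut aggrecan, versican and related proteoglycans, Adamts1, Adamts5, Adamts9 and Adamts15 were higher, and the other 3 were at background. Adamts1 (Entrez Gene 11504), which encodes a versican-cutting enzyme, read 6.85 and 6.81 in scramble and 7.54 and 7.69 in knockdown (1.73-fold, log2 fold change 0.79, SE 0.11, adjusted p = 0.00416). The groups did not overlap. Adamts15 read 2.48 and 2.66 in scramble, close to background, and 3.31 and 3.56 in knockdown (1.82-fold, log2 fold change 0.87, SE 0.13, adjusted p = 0.00578). Only its knockdown arrays were clear of the background value, so the fold is inexact. Adamts5 (Entrez Gene 23794), which encodes an aggrecanase also found in fat, read 7.72 and 7.47 in scramble and 8.09 and 8.23 in knockdown (1.48-fold, log2 fold change 0.56, SE 0.12, adjusted p = 0.0235). The call was lost without scramble replicate 2 (adjusted p = 0.0593) and without knockdown replicate 1 or 2 (0.0766 and 0.145), but 2 dimmer probe sets of Adamts5 gave 0.70 and 0.85. Adamts9, a gene for another versican-cutting protease, read 5.75 and 5.83 in scramble and 7.01 and 6.37 in knockdown (1.86-fold, log2 fold change 0.90, SE 0.20, adjusted p = 0.0237). Its knockdown arrays differed by more than those of the other called members. The call was lost without scramble replicate 1 (adjusted p = 0.0594) and without knockdown replicate 1 (log2 fold change 0.58, adjusted p = 0.0689). The other 2 probe sets of Adamts9, above background, had log2 fold changes of -0.01 and -0.14, and the mean of all 3 gave 0.25 (adjusted p = 0.202).

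The remaining ADAMTS proteases, 6 genes, and the 5 ADAMTS-like genes, whose products lack a protease domain, held no call by the probe sets used. Adamts12 read 6.49 and 6.43 in scramble and 6.92 and 6.42 in knockdown, with a log2 fold change of 0.21 (-0.19 to 0.61). The groups overlapped, and knockdown replicate 1 alone was high. Adamts6, whose product acts on microfibrils, read 2.67 and 2.54 against 2.84 and 3.38 (log2 fold change 0.51, 0.09 to 0.93, adjusted p = 0.0943; 0.0315 without knockdown replicate 1). Adamts16 read 3.05 and 3.29 in scramble and 2.88 and 2.81 in knockdown (-0.33, -0.61 to -0.05, adjusted p = 0.0995). Adamts10, a gene for a fibrillin-binding member, had a log2 fold change of 0.09 (-0.27 to 0.45). Among the ADAMTS-like genes the log2 fold changes ran from -0.20 for Adamtsl2 to 0.33 for Adamtsl5, with Adamtsl1 at 0.19, Adamtsl3 at 0.26 and Adamtsl4 at 0.08. A dimmer probe set of Adamtsl1 read 2.35 and 2.41 in scramble, at background, and 2.77 and 3.15 in knockdown. Its log2 fold change was 0.58, called when all probe sets were tested (limma adjusted p = 0.0391). Adamtsl2, which encodes a protein that binds latent TGF-beta complexes, read 3.97 and 4.72 in scramble and 4.21 and 4.07 in knockdown, so the scramble arrays spanned the knockdown arrays. Without scramble replicate 1 its log2 fold change was -0.58 (adjusted p = 0.0279), and without scramble replicate 2 it was 0.17.

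**Figure D2:**
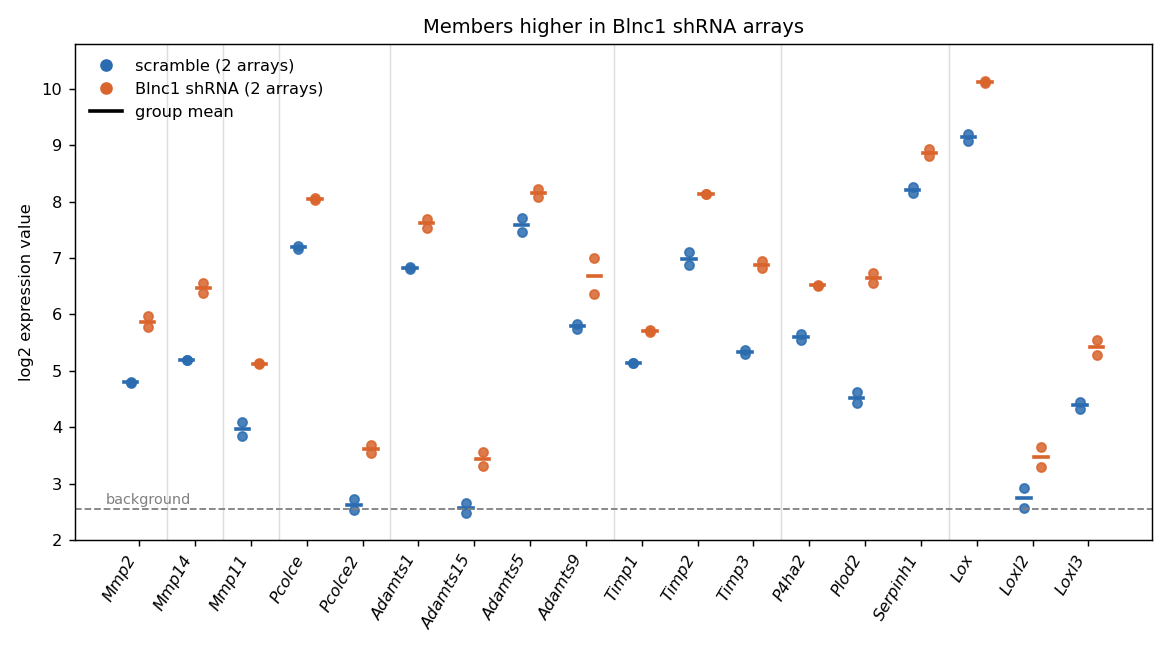
Log2 expression value (vertical axis) on each array of the 18 genes higher in knockdown, in order of role and separated by role with thin lines; blue points are the 2 scramble arrays, orange points the 2 knockdown arrays, bars the group means and the dashed line the background value of 2.55. Each gene's knockdown points lie above its scramble points, and the widest knockdown pair is that of Adamts9, at 7.01 and 6.37.

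All 3 measured TIMP genes were higher in knockdown. Timp3 (Entrez Gene 21859), whose product binds to the matrix and inhibits ADAM and ADAMTS enzymes as well as MMPs, read 5.37 and 5.30 in scramble and 6.82 and 6.94 in knockdown. This was a 2.92-fold rise (log2 fold change 1.55, SE 0.10, adjusted p = 0.000427), and the gap between the groups was far wider than that between replicates. Timp2 (Entrez Gene 21858), an inhibitor that also takes part in MMP2 activation by MMP14, read 7.10 and 6.88 in scramble and 8.14 and 8.14 in knockdown (2.23-fold, log2 fold change 1.15, SE 0.11, adjusted p = 0.00145). Timp1 (Entrez Gene 21857), a soluble inhibitor induced in fibroblasts by growth factors and cytokines, read 5.13 and 5.13 against 5.72 and 5.69 (1.49-fold, log2 fold change 0.57, SE 0.10, adjusted p = 0.00962). The replicates of Timp1 were close, yet its call was lost without knockdown replicate 1 or 2 (adjusted p = 0.0713 and 0.0675), while the log2 fold change stayed between 0.56 and 0.59. The promoter windows of the 3 inhibitors, which rose together, are those of Timp1 at chrX:20869916-20870215 (plus strand), Timp2 at chr11:118355362-118355661 (minus strand) and Timp3 at chr10:86300162-86300461 (plus strand), with the same motifs in capitals.
Timp1: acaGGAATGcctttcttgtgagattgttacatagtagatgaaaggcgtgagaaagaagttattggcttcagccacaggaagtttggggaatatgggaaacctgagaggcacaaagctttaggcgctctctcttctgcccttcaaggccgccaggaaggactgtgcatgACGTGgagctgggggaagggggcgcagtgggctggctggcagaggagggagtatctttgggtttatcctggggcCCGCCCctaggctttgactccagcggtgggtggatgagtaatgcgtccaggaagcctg
Timp2: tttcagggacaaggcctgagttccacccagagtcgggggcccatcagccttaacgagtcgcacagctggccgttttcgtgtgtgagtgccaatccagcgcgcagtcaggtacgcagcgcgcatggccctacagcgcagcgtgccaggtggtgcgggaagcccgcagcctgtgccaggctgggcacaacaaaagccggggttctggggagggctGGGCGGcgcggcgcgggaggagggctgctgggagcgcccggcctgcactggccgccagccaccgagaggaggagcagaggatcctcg
Timp3: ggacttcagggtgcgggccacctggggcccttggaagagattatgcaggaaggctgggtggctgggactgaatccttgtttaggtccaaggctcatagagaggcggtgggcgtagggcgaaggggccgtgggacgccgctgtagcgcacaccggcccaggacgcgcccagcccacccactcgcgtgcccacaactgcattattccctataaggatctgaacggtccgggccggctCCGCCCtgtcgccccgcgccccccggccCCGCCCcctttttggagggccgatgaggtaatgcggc
Each holds at least 1 GC box, and none holds a match to the AP-1 motif TGANTCA or a TATA box. Variant forms of these motifs were not searched, so a site that departs from these letters is not counted. The GC box starts 8 bases before the gene start in Timp1, 37 in Timp2 and 15 in Timp3, where a second match follows the start. The window of Timp1 also holds a TEAD motif and a hypoxia response core. The member counts that follow are of 37 windows, which cover 34 of the 54 members and only 11 of the 18 that rose. They leave out Lox, among other genes that rose. They do not speak for every gene that rose. Over the members counted, a GC box lay in 11 of 11 windows of genes that rose. Among windows of genes not called, it lay in 8 of 14 for genes above background and 4 of 12 for genes at background. Of all 32851 windows 35.7% held one, and a gene can have more than 1 window. An AP-1 match lay in 0 of 11, 1 of 14 and 7 of 12 (7.81% of all windows), and a TATA box in 1 of 11, 4 of 14 and 7 of 12 (13.6%). The hypoxia response core lay in 4 of 11, 2 of 14 and 3 of 12 windows (19.6% of all), and the TEAD motif in 1 of 11, 0 of 14 and 0 of 12 (14.7%). A match is a string of letters in the window and was not tested for binding, and neighbouring paralogs such as Mmp1a and Mmp1b share sequence.

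Both measured enhancers of procollagen trimming were higher. PCOLCE and PCOLCE2 bind the C-terminal propeptide of procollagen and speed its removal by BMP1. Pcolce (Entrez Gene 18542) read 7.22 and 7.16 in scramble and 8.06 and 8.03 in knockdown (1.81-fold, log2 fold change 0.86, SE 0.10, adjusted p = 0.00249). Pcolce2 read 2.53 and 2.72 in scramble, near background, and 3.68 and 3.55 in knockdown (1.98-fold, log2 fold change 0.99, SE 0.11, adjusted p = 0.00252). For both, the groups were separate and the replicates close. Bmp1, the gene for the proteinase itself, read 4.82 and 4.76 against 4.96 and 5.23, with a log2 fold change of 0.30 (0.01 to 0.59, adjusted p = 0.135), and 2 dimmer probe sets had -0.03 and -0.13. Whether Bmp1 differed from its enhancers was not tested. Adamts3, a gene for an enzyme that removes the N-terminal propeptide, was at background.

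Among the enzymes and the chaperone that act on collagen inside the cell, Plod2, P4ha2 and Serpinh1 were higher. Plod2 (Entrez Gene 26432) encodes the lysyl hydroxylase of the collagen telopeptides, whose hydroxylysines enter stable pyridinoline crosslinks. It read 4.62 and 4.43 in scramble and 6.55 and 6.73 in knockdown, a 4.33-fold rise (log2 fold change 2.11, SE 0.12, adjusted p = 0.000328), larger than that of the other 53 members by these probe sets. A second probe set of Plod2 read 5.03 and 4.60 in scramble and 5.54 and 5.03 in knockdown, where the groups met at 5.03, with a log2 fold change of 0.47 (SE 0.20, adjusted p = 0.174 over all probe sets). The size of the Plod2 rise thus differs between its probe sets, and their mean gave 1.29 (adjusted p = 0.00234). The other lysyl hydroxylase genes were not called: Plod1 read 5.07 and 5.10 against 4.92 and 5.10 (log2 fold change -0.08, -0.34 to 0.18). Plod3, whose product also glycosylates collagen, read 5.46 and 4.89 against 5.27 and 5.30 (0.10, -0.33 to 0.54). By the probe sets used, their intervals lie wholly below that of Plod2, which runs from 1.83 to 2.40. This does not extend to the second probe set of Plod2, whose 0.47 lies inside the interval of Plod3. That second set was the brighter one on both scramble arrays, so the set used was picked through its knockdown values. P4ha2 (Entrez Gene 18452), which encodes a catalytic subunit of prolyl 4-hydroxylase, read 5.66 and 5.55 in scramble and 6.50 and 6.53 in knockdown (1.88-fold, log2 fold change 0.91, SE 0.10, adjusted p = 0.00227). Serpinh1 (Entrez Gene 12406), the gene for the collagen chaperone HSP47, read 8.27 and 8.16 against 8.81 and 8.93 (1.58-fold, log2 fold change 0.66, SE 0.11, adjusted p = 0.00825; 0.071 without knockdown replicate 2). Its probe set is of a type that can detect related transcripts, and the other probe set of Serpinh1 gave 0.70.

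Of the 5 lysyl oxidase genes, Lox, Loxl2 and Loxl3 were higher. Lox (Entrez Gene 16948), the founding member of the family, read 9.21 and 9.08 in scramble and 10.15 and 10.11 in knockdown (1.97-fold, log2 fold change 0.98, SE 0.10, adjusted p = 0.0018). A dimmer probe set of Lox read 7.92 and 7.74 against 9.70 and 9.87, a log2 fold change of 1.95. Both sets put the knockdown arrays above the scramble arrays, by different amounts. Loxl3 (Entrez Gene 16950) read 4.45 and 4.32 in scramble and 5.28 and 5.55 in knockdown (2.05-fold, log2 fold change 1.03, SE 0.13, adjusted p = 0.00291). Loxl2, whose product crosslinks type IV collagen, read 2.57 and 2.92 in scramble, near background, and 3.29 and 3.65 in knockdown (1.65-fold, log2 fold change 0.73, SE 0.17, adjusted p = 0.0256). That call was lost without scramble replicate 1 (adjusted p = 0.0693) or knockdown replicate 2 (0.144). Loxl1, which encodes the oxidase tied to elastic fibres, read 7.50 and 7.72 in scramble and 7.28 and 7.26 in knockdown (log2 fold change -0.34, -0.61 to -0.07, adjusted p = 0.0816). Both of its knockdown arrays were lower, and the adjusted p was 0.0486 after quantile normalization, 0.0129 in eBayes with a trend and 0.0474 without scramble replicate 1. The interval of Loxl1 does not meet those of Lox (0.73 to 1.22), Loxl2 (0.33 to 1.12) or Loxl3 (0.73 to 1.33). Loxl4 read 2.46 and 3.10 in scramble and 2.87 and 2.93 in knockdown (0.12, -0.34 to 0.59), with the scramble arrays on either side of the knockdown arrays.

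Several members are read by more than 1 probe set, 25 of the 54 in all, and these show how far a fold change depends on the probes. Over the 93 probe sets of the members, 29 were higher and 0 lower (limma, adjusted over all probe sets), against 8.73% higher and 5.38% lower of all 45037 probe sets. The 5 probe sets of Timp2 gave log2 fold changes of 1.15, 1.63, 2.75, 0.82 and -0.13, where the last was at background in both groups. The steepest of them read at most 4.19 in scramble and 6.68 and 7.02 in knockdown. The 4 probe sets of Timp3 gave 1.55, 1.81, 0.89 and 0.19, the last of them from values of 2.53 to 3.05. The second probe set of Mmp14 had values of 2.38 to 2.75, around background. Thus the direction of Timp2, Timp3, Lox and Adamts5 was shared by every probe set clear of background, and the amount was not.

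**Figure D3:**
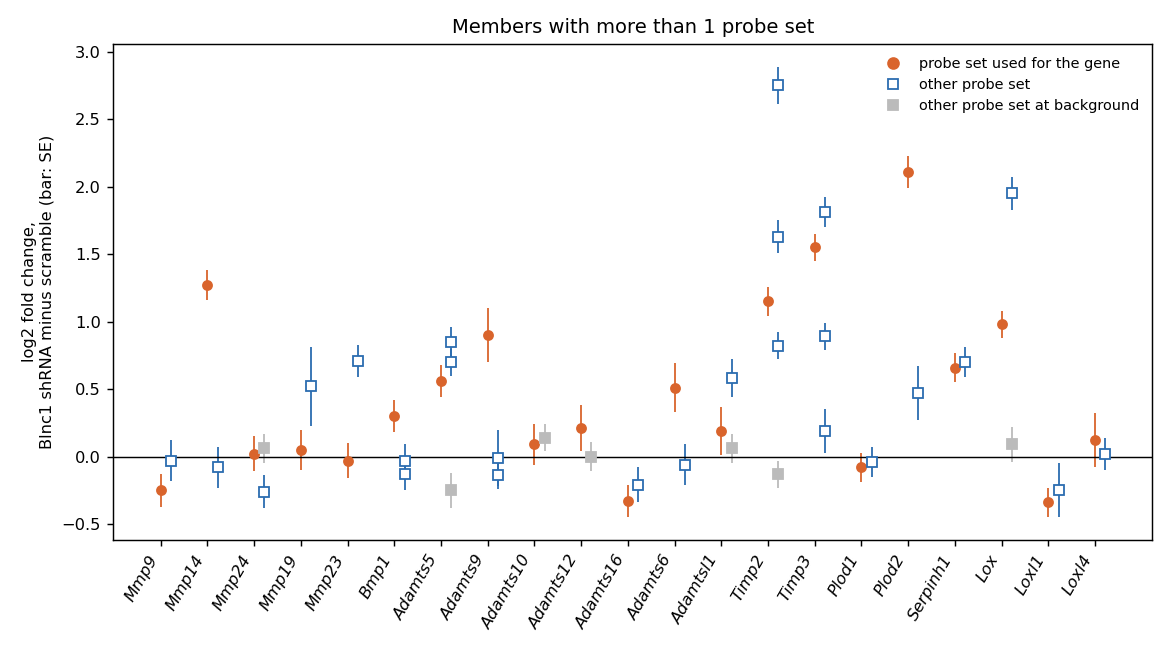
Log2 fold change (Blnc1 shRNA minus scramble, vertical axis, bars show the standard error) of every probe set of the members that have more than 1 and are above background; orange circles are the probe sets used for the gene, open squares the others and grey squares those at background in both groups. The probe sets of Serpinh1 lie together at 0.66 and 0.70, while those of Plod2 lie apart at 2.11 and 0.47.

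Lists of other genes of the same processes were read against the 11.4% of all genes that were higher and the 7.18% that were lower. Of 9 plasminogen system genes, 1 was higher (11.1%, about the share of all genes) and 0 were lower. That gene was Plat, the gene for tissue plasminogen activator, read 4.27 and 3.72 in scramble and 6.27 and 6.40 in knockdown (5.07-fold, adjusted p = 0.000705). Plau, the gene for urokinase, was at background in both groups. Of 22 other matrix proteases and activators 7 were higher (31.8%) and 0 lower, led by Fap, a fibroblast surface protease (2.72-fold, adjusted p = 0.00108), and Ctsk, the collagen-degrading cathepsin K (2.34-fold, adjusted p = 0.000939). Adam12 and Adam9 rose 1.85-fold and 1.63-fold. Of 12 other inhibitors and clearance receptors 4 were higher (33.3%) and 1 lower (8.33%). Reck, a membrane-anchored inhibitor of MMPs, read 4.93 and 4.70 in scramble and 6.08 and 6.27 in knockdown (2.57-fold, adjusted p = 0.00116). Mrc2, the receptor that takes up collagen, rose 1.87-fold and Serping1 1.56-fold, while Pzp, also made in liver, fell from 3.15 and 2.89 to 2.47 and 2.33 (adjusted p = 0.0178). Hepatocyte markers fell on the same arrays, with summed values of 278 and 294 against 68.9 and 93.1. Any link between that fall and Pzp was not tested.

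Of 19 other collagen biosynthesis genes, 4 were higher, or 21.1% (P3h3, P4hb, Fkbp9 and Sparc, 1.84, 1.75, 1.65 and 1.51-fold), and 1, the transglutaminase gene Tgm2, was 1.48-fold lower. P4hb, which encodes the partner subunit of the prolyl 4-hydroxylases, read 8.42 and 8.54 in scramble and 9.25 and 9.31 in knockdown (adjusted p = 0.00351). The peptidyl-prolyl isomerase gene Ppib (log2 fold change -0.06) and the collagen galactosyltransferase gene Colgalt1 (-0.04) were not called. Of 11 fibrillar collagen genes, the substrates of these enzymes, 7 were higher (63.6%) and 1 lower (9.09%). Beside Col11a1 and Col1a1, Col5a1 rose 2.36-fold (adjusted p = 0.000858) and Col5a2 1.99-fold (adjusted p = 0.00166), and Col27a1 was 1.41-fold lower (adjusted p = 0.0189). The medians were -0.063 for the plasminogen system, 0.10 for other proteases, -0.081 for other inhibitors, 0.15 for other collagen biosynthesis genes and 0.77 for fibrillar collagens, beside -0.037 over all genes.

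**Figure D4:**
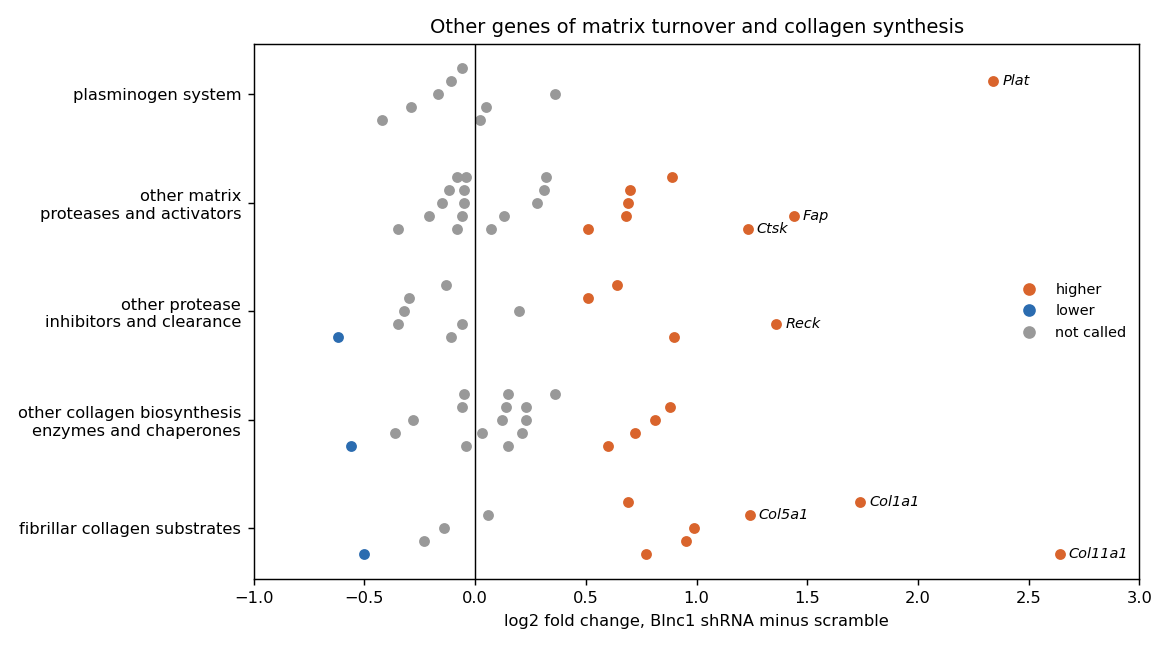
Log2 fold change (Blnc1 shRNA minus scramble, horizontal axis) of the genes on 5 lists of matrix turnover and collagen synthesis outside the 54, 1 point per gene; orange genes were higher, blue lower and grey not called, and points are spread vertically for clarity. Plat, at 2.34, stands alone among the plasminogen system genes, and 7 of 11 fibrillar collagens are higher.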

How the data were processed

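From 250 ng of total RNA, biotin-labelled antisense RNA was prepared with a 3' in vitro transcription kit and read on Affymetrix mouse PM strip arrays, per the labels' protocols. The values used are log2 expression values deposited by the authors, 1 per probe set and array. Per the submitters' processing notes, affy, RMA and limma were used, in roles and versions that are not given there. The steps of the normalization are not stated.

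Of 45037 probe sets that are not controls, 28898 have exactly 1 gene symbol in the platform annotation, 551 several and 15588 none. Background, a log2 value of 2.55, is the maximum over all arrays of the antigenomic control probe sets whose GC count is 3 to 24. Genes were read by the probe set with the highest mean of the 4 arrays. In the scramble mean alone, another probe set was the brighter one for Plod2, Adamts6 and Mmp24. The fit was lmFit and eBayes in limma 3.58.1 (R 4.3.3) on all probe sets, with group as the only term, two-sided, adjusted by Benjamini-Hochberg over 17097 genes, with a threshold of 0.05. Residual degrees of freedom were 2 and prior ones 4.93. The number of arrays limits the precision, and the median standard error was 0.11. Fold changes are on the log2 scale.

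The method was run on 5 simulated data sets of knockdown against scramble, with 200 of 17097 genes changed. A change of 0.5 log2 units was recovered in 7.2% of cases, of 1 in 89.8% and of 2 in 99.6%, and 5.25% of calls were false. In the data 3169 genes were called, which makes the Benjamini-Hochberg cutoff less strict than in the simulation. These shares therefore do not give the recovery in the data. The members, roles, gene lists and motifs were chosen with earlier results of these data known. The rule for named genes takes all called members, uncalled members above background and up to 4 called genes of each other list with the largest change. Several uncalled members are given by fold change alone, and Tgm2, Col27a1 and the genes named as not called were picked with their values already known. The alternatives were quantile normalization, median centring, leaving out the dimmest 40 percent of genes, keeping genes above background, a trended or a robust eBayes, averaging a gene's probe sets, each probe set alone, the replicate number as a block and leaving out each array. A lone remaining array of a group is assumed to have the spread of the other group. Plots were drawn with matplotlib 3.10.9.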

Additional observations from a re-analysis of the deposited data

How the results depend on the processing

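Of the 18 higher members, 13 were called in each alternative fit that tested them, apart from single dimmer probe sets of Plod2 (0.47), Timp3 (0.19) and Lox (0.093) and those below. The exceptions were Adamts5, Adamts9, Timp1, Serpinh1 and Loxl2, in the cases given above. The cause was not tested for any change below. The number of lower members was 1 with quantile normalization and 1 with a trended eBayes, both times Loxl1, and 0 to 2 on leaving out 1 array (Loxl1 and Adamtsl2 without scramble replicate 1, and Mmp16, at background, without scramble replicate 2). P4ha3, at background, was called higher with quantile normalization, median centring and the mean of all probe sets. The members' median log2 fold change was 0.69 without the dimmest 40 percent of genes and 0.42 over genes above background, where fewer members remain. Lower genes on the other matrix lists numbered 3, or 5 in eBayes with a trend and with the mean of all probe sets, and 0 to 5 with 1 array left out. Over all genes, leaving out 1 array gave 1050 to 2841 calls, 795 to 1681 higher and 255 to 1168 lower, the fewest without knockdown replicate 2. The replicate block gave 18 higher and 0 lower members and 3179 called genes in place of 3169. Deviations of same-numbered arrays correlated at 0.0191, so the numbers were not taken to pair samples. With 2 pairs the block changed the call of no member.

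Some values changed sign, mostly of uncalled members. After quantile normalization the log2 fold change was 0.0034 for Mmp7 and -0.032 for Plod3, and after median centring 0.022 for Mmp7 and 0.039 for Mmp23. With the mean of all probe sets it was -0.061 for Mmp24 and 0.34 for Mmp23. Single dimmer probe sets had the opposite sign, also for the called genes Adamts5, Adamts9, Mmp14 and Timp2: Adamts5 (-0.25), Adamts6 (-0.064), Adamts9 (-0.013 and -0.14), Bmp1 (-0.033 and -0.13), Mmp14 (-0.078), Mmp23 (0.71), Mmp24 (-0.26) and Timp2 (-0.13). With 1 array left out the ranges were -0.14 to 0.17 for Mmp24, -0.16 to 0.27 for Mmp19, -0.14 to 0.085 for Mmp23, -0.12 to 0.036 for Mmp7, -0.10 to 0.28 for Adamts10, -0.042 to 0.46 for Adamts12, -0.054 to 0.43 for Adamtsl1, -0.58 to 0.17 for Adamtsl2, -0.067 to 0.23 for Adamtsl4, -0.17 to 0.013 for Plod1, -0.18 to 0.39 for Plod3 and -0.20 to 0.44 for Loxl4. Genes near background have inexact folds.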
